A study of Mus musculus with 10 samples.

Results

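The classical complement pathway was followed through 9 genes of an nCounter mouse immune panel, taken as the rows named C1qa, C1qb, C1qbp, C1ra, C1s, C2, C3, C4a and Serping1 out of 545 endogenous genes. The choice used gene names and no measured value, although earlier results of these data were known when it was made. The samples were microglia, the resident macrophages of the brain, isolated from the hippocampus of male Balbc pups on postnatal day 14. The 5 control pups carried the numbers 1, 18, 40, 52 and 69. The 5 pups exposed to brief daily separation (BDS), in which pups were parted from the dam for 15 min a day under a schedule of postnatal days 1 to 21, were numbered 11, 17, 24, 38 and 59. Each pup came from a litter of its own and was read in 1 lane. No genotype or drug separates the groups; cells were enriched on a Percoll gradient and sorted, and no text used here names the sorting markers.

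C1q is the recognition molecule of the pathway. It is built from A, B and C chains and binds antibody or other surface tags. Bound C1q activates the proteases C1r and C1s, which cleave C4 and C2, and the resulting enzyme cleaves C3, whose fragments are read by complement receptor 3 on microglia. Microglia are the main source of C1q in brain, and in the developing nervous system C1q and C3 are known for tagging synapses for removal.

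Per RefSeq, C1qa and C1qb are neighbours on mouse chromosome 4 with 1 gene, C1qc, between them. C1ra and C1s (RefSeq symbol C1s1) lie side by side on chromosome 6. C2, C3 and C4a are on chromosome 17, Serping1 is on chromosome 2 and C1qbp on chromosome 11. C1qbp shares part of its name with the C1q chains but encodes an unrelated mitochondrial protein found through its binding to C1q. Promoter windows of 300 bases, from 250 before to 50 after the annotated start, were matched for 5 of the 9 members. No window was available for C1qa, C2, C4a and Serping1. The windows of C1qb and C1qbp are shown. Of the members with a window, only these were measured well above background in every lane. C1qb is a chain of C1q while C1qbp is not. Capitals mark GAGGAA, the core motif bound by the macrophage factor PU.1, searched on both strands; the C1qb window lies at chr4:136886151-136886450 and that of C1qbp at chr11:70982977-70983276, both on the minus strand of GRCm38.p6 and written 5′ to 3′.
C1qb: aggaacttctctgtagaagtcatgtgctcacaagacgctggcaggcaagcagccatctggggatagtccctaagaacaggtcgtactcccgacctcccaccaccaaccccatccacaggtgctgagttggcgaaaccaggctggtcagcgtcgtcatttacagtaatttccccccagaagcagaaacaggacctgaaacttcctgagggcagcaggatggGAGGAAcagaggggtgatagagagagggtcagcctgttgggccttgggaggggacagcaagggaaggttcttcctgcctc
C1qbp: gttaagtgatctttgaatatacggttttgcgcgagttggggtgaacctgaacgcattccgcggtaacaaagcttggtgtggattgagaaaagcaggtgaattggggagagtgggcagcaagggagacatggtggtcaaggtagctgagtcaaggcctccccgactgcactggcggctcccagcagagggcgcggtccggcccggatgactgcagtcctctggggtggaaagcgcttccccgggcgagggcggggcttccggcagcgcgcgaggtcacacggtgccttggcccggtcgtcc
The C1qb window held 1 copy, which begins 30 bases before the start, and 6 CpG dinucleotides. That of C1qbp held 0 copies and 23 CpG dinucleotides. Of the other matched members, C1ra held 1 copy, and C1s and C3 held 0. Of 21263 windows of the same length at protein-coding genes, 27.4% held the motif and the median number of CpG dinucleotides was 13. These matches describe letters and no binding was measured.

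Depth differed between the groups and is therefore given beside the results it touches. Endogenous counts per lane ran from 76237 in control 52 to 968930 in BDS 17. The geometric mean of the 6 housekeeping genes used for scaling was higher in BDS lanes by 1.23 on the log2 scale. All 9 microglia markers looked for were detected, with a summed share of endogenous counts of 23.6% to 30.8% in control and 22.7% to 26.8% in BDS lanes, while 0 of 8 T cell markers were. Markers of other cells were detected in part. Of 4 endothelial markers Pecam1, Cdh5 and Cd34 were detected, with a summed share of the list of 0.197% to 0.397% in control and 0.214% to 0.263% in BDS lanes. Of 4 granulocyte markers Csf3r was detected, while S100a8, S100a9 and Cxcr2 were not. The summed share of that list was 0.349% to 0.881% in control and 0.237% to 0.422% in BDS lanes. The B cell, NK cell, monocyte or border macrophage and stromal lists had 1 detected gene each (Cd79b, Klrk1, Ccr2 and Pdgfrb). The part of such cells in the results was not tested. Of the 545 genes, 283 exceeded the lane's limit (the mean of its negative-control probes plus 2 SD) in at least 4 of 10 lanes and were tested. A bulk count cannot tell more RNA per cell from more cells of a type.

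Detection differed among the members, also between partners of one step. C1qa, C1qb and C1qbp exceeded the limit in all 10 lanes, C2 in 7 and C1ra in 6, so 5 members were tested. C1s, C3 and C4a exceeded it in 1 lane each, BDS 17, the deepest of the 10, and Serping1 in 0 lanes. C1ra and C1s, the proteases of the C1 complex, were thus detected in 6 lanes and 1 lane. C2 exceeded the limit in 7 lanes and C4a in 1. RefSeq lists C4a as a transcribed pseudogene, so its count does not stand for the C4 that acts with C2.

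C3, the protein whose fragments opsonise targets, had raw counts of 7, 10, 13, 1 and 4 in control lanes 1, 18, 40, 52 and 69, and of 7, 22, 17, 13 and 14 in BDS lanes 11, 17, 24, 38 and 59. Limits in the lanes lay between 13.9 and 26.3 raw counts. C1s, the protease that cleaves C4 and C2, ranged from 2 to 18 raw counts and Serping1, the inhibitor of C1r and C1s, from 3 to 13. C4a, a copy of the C4 gene that RefSeq lists as a transcribed pseudogene, ranged from 2 to 40. Whether its probe also binds the near-identical C4b transcript was not tested, and C1ra and C1s likewise have close copies, C1rb and C1s2. For these 4 genes no difference between groups is read, because they did not exceed the limit in 4 lanes.

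**Figure D1:**
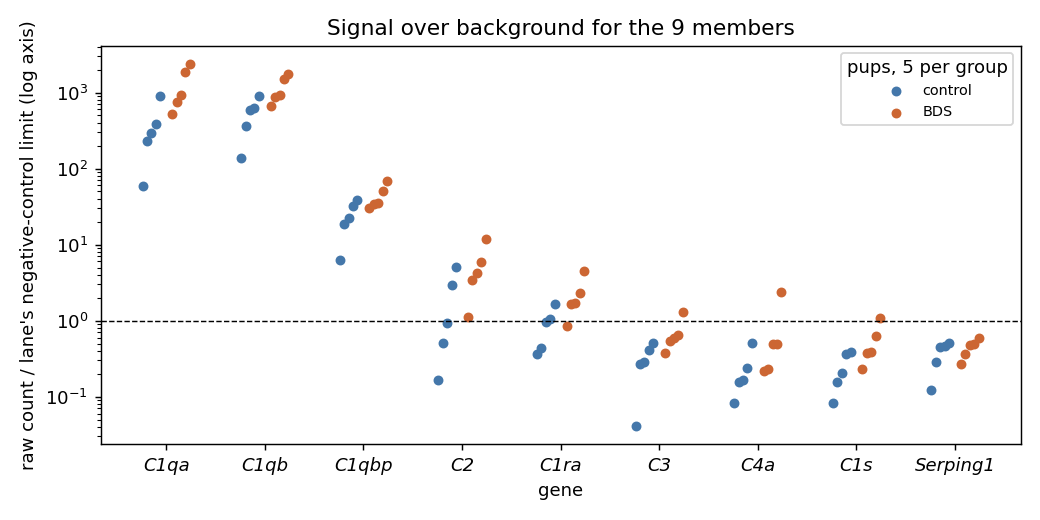
Raw count of each of the 9 members divided by the limit of its lane (y, log axis) for 5 control (blue) and 5 BDS (orange) pups, each point 1 pup; the dashed line at 1 is the limit. C1qa, C1qb and C1qbp lie above it in all 10 lanes, C2 in 7 and C1ra in 6, while Serping1 lies below it throughout.

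Values of the low genes rest on few barcodes. In the authors' deposited table C1ra is marked as above background in 100% of samples. Its deposited score in control 52 was 76, the highest of the 10, and comes from a raw count of 9 in a lane whose limit was 24.4. Serping1 in the same lane had a raw count of 11, which scaling turned into 56.1 normalized counts, against 2.70 to 15.0 in the other control lanes. The authors' deposited fold of 0.30 for Serping1 therefore rests on counts that did not exceed the limit in any lane.

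C1qa, the A chain of C1q, had the smallest p of the tested members and was higher in BDS pups. In normalized counts (the raw count after scaling each lane to equal housekeeping signal) the values were 9632, 8553, 12413, 7451 and 8732 in control pups 1, 18, 40, 52 and 69. In BDS pups 11, 17, 24, 38 and 59 they were 11665, 18226, 13873, 21282 and 14066. The groups overlapped in 1 pair only: control 40 stood above BDS 11, and the other 4 BDS pups exceeded every control pup. The means were 15822 ± 3865 (SD, n = 5) in BDS and 9356 ± 1876 (n = 5) in control pups, a 1.69-fold difference with a log2 fold change of 0.76 ± 0.20 (SE; edgeR quasi-likelihood unadjusted p = 0.00161, Benjamini-Hochberg adjusted p = 0.0643). It missed the adjusted threshold of 0.05 and had the 4th smallest p of the 283 genes. As a share of all endogenous counts, which uses no housekeeping gene, C1qa made up 2.18% ± 0.415 in control and 3.57% ± 0.742 in BDS lanes (SD, n = 5 each).

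C1qb, the B chain of the same molecule, did not show that difference with all lanes in the fit. Its normalized counts were 11634, 13061, 12377, 17376 and 23393 in control pups 1, 18, 40, 52 and 69, and 14827, 13619, 13302, 17314 and 17255 in BDS pups 11, 17, 24, 38 and 59. Control pups stood on both sides of all 5 BDS pups, with controls 1, 18 and 40 below them and controls 52 and 69 above. The means were 15568 ± 4910 (SD, n = 5) in control and 15264 ± 1931 in BDS pups, and the fitted difference was -0.028 ± 0.20 on the log2 scale (SE; edgeR adjusted p = 0.944). From the lowest to the highest pup C1qb spanned 2.01-fold in control and 1.30-fold in BDS pups. The sign of its log2 fold change depended on the settings. With lane depth as a covariate it was 0.27 (edgeR unadjusted p = 0.222, adjusted p = 0.491). Without control 52 and 69, the lanes of lowest housekeeping signal, it was 0.305 (edgeR unadjusted p = 0.0484, adjusted p = 0.160). C1qa was at 0.63 in that fit (edgeR unadjusted p = 0.00901, adjusted p = 0.101). Both chains were thus higher there at an unadjusted p under 0.05, and neither passed the adjusted threshold. In either direction 87 of 283 genes had such an unadjusted p, and 70 of them were higher in BDS pups. The median log2 fold change of all tested genes was 0.206 in that fit. By log2 fold change C1qa ranked 50th and C1qb 121st of 283 there.

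C1qbp stood at 725, 702, 540, 785 and 698 normalized counts in control pups 1, 18, 40, 52 and 69 and at 686, 531, 530, 585 and 635 in BDS pups 11, 17, 24, 38 and 59. Control 40 was low among controls and lay within the BDS range. The log2 fold change was -0.21 ± 0.17 (SE, n = 5 per group; edgeR adjusted p = 0.415), and -0.037 with lane depth as a covariate. The authors' deposited table gives a fold of 0.75 and an unadjusted p-value of 0.0349 for it. Its scores follow a scaling without the housekeeping gene Sdha, and leaving Sdha out here gave -0.41 (edgeR adjusted p = 0.178).

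C2, the protease that joins the C4 fragment to form the C3-cleaving enzyme, had normalized counts of 16.2, 63.9, 71.2, 20.4 and 35.3 in control pups 1, 18, 40, 52 and 69. In BDS pups 11, 17, 24, 38 and 59 they were 25.4, 91.9, 64.2, 68.4 and 64.5. The low values fell in the shallow lanes of both groups: C2 exceeded the limit in 2 of 5 control and 5 of 5 BDS lanes. The log2 fold change was 0.52 ± 0.41 (SE; edgeR adjusted p = 0.405), and with lane depth as a covariate it was -0.099. C1ra, the protease that activates C1s, exceeded the limit in 2 control and 4 BDS lanes and stood at 27.9 ± 11.4 normalized counts in control and 27.4 ± 5.79 in BDS pups (SD, n = 5 each). The fitted difference was 0.058 ± 0.30 on the log2 scale (SE; edgeR adjusted p = 0.915), and it changed sign with the scaling, for example to -0.13 without Sdha.

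**Figure D2:**
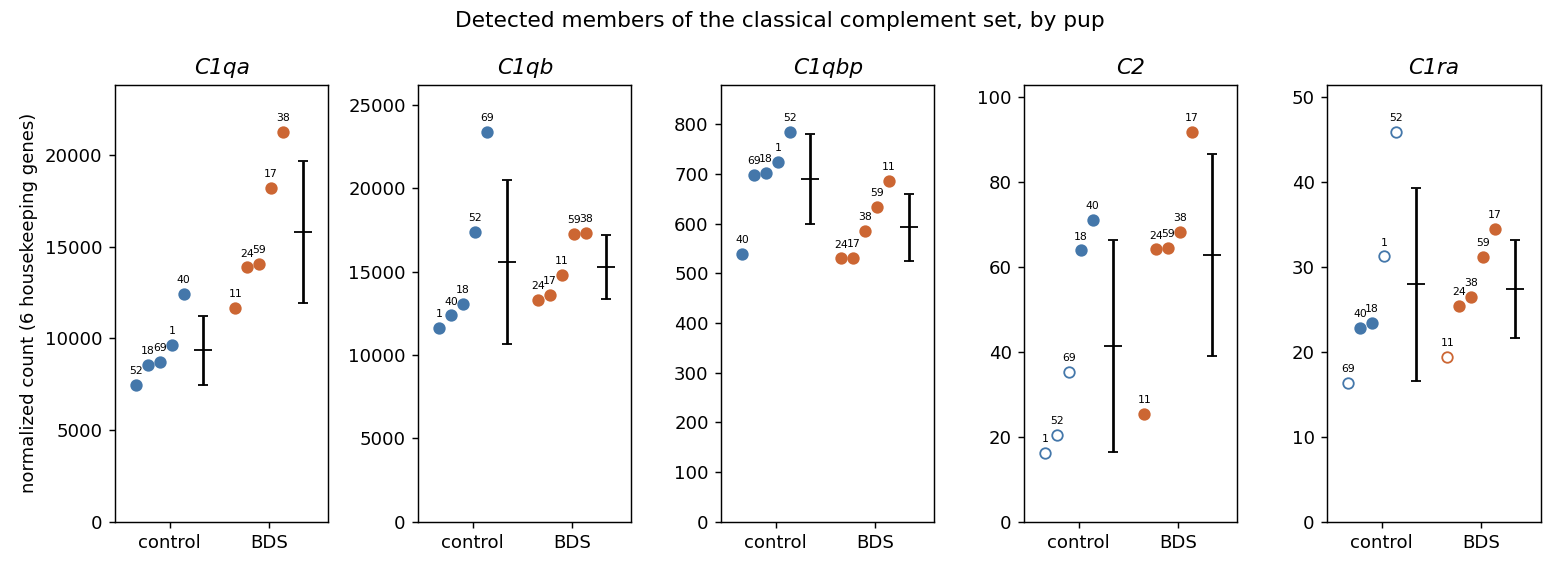
Normalized counts (y, linear from 0, one scale per gene) of the 5 detected members in control and BDS pups; each point is 1 pup with its number, ordered by value, open points lie at or below the limit of their lane, and bars show mean ± SD (n = 5). C1qa is higher in 4 BDS pups than in every control pup, while the 5 BDS values of C1qb lie between control pups 18 and 52.

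Across the panel 0 of 283 genes, 0%, passed an adjusted p of 0.05 by edgeR, and likewise 0 of the 5 tested members; DESeq2 called 25 genes and limma 0. At an unadjusted edgeR p under 0.05 the panel had 80 genes, 28.3%, and the members 1 of 5, C1qa. That share, 1 of 5, is no larger than the panel's. In 13 genes, 4.59%, the values of the groups did not overlap, and no member was among them. Of the authors' 309 present genes 54, or 17.5%, had a deposited p-value under 0.05, and among the members these were C1qa (deposited fold 1.49, p-value 0.0122) and C1qbp. The median log2 fold change was 0.058 over the 5 tested members and 0.089 over the 283 genes, with 3 members higher and 2 lower. Of the higher members, C2 and C1ra exceeded the limit in only 2 control lanes each and met the 4-lane rule through BDS lanes. Without the filter the median over all 545 genes was -0.24. The direction and rank of C2 and C1ra are therefore not read as a result. C1qa ranked 26th of 283 by log2 fold change, C2 51st, C1ra 148th, C1qb 166th and C1qbp 207th.

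C1qa moved past the threshold in some settings and away from it in others. DESeq2 with the same scaling gave 0.76 (DESeq2 adjusted p = 0.0114), and edgeR on the 197 genes above the limit in all 10 lanes gave an adjusted p of 0.0493. Leaving out control 40 gave 0.88 (edgeR adjusted p = 0.0253) and leaving out BDS 11 gave 0.85 (edgeR adjusted p = 0.0298). These are the 2 pups that overlap. Other panel genes passed in these settings too. The genes called were 25 of 283 with DESeq2 and 10 of 197 with the all-lane filter. They were 48 of 283 without control 40 and 19 of 283 without BDS 11. Without BDS 17 and 38, the highest pups, it was 0.50 (edgeR adjusted p = 0.432). With lane depth as a covariate it was 0.47 (edgeR unadjusted p = 0.0304, adjusted p = 0.369), where 12.7% of the 283 genes and 1 of 5 members, again C1qa, had an unadjusted p under 0.05. Its direction was the same in each of the 25 alternatives tried, which reuse the same pups and are not independent tests.

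A ratio of 2 genes in 1 lane is free of any scaling, so C1qa was set against C1qb directly. The ratio is of barcode counts and depends on both probes, so only its change between lanes is read. It was 0.828, 0.655, 1.003, 0.429 and 0.373 in control pups 1, 18, 40, 52 and 69, and 0.787, 1.34, 1.04, 1.23 and 0.815 in BDS pups 11, 17, 24, 38 and 59. Control pups 18, 52 and 69 lay below every BDS pup, and control pups 1 and 40 within the BDS range. The mean log2 ratio was higher in BDS pups by 0.73 (exact two-sided permutation p = 0.0635, n = 5 each), which did not pass 0.05. Without control 52 and 69 the difference was 0.32 (exact permutation p = 0.286).

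Lane depth moved with this ratio. The 2 lanes of lowest housekeeping signal, control 52 and 69, had the lowest ratios and the 2 of highest signal, BDS 38 and 17, the highest. Between them the order was not strict: from low to high housekeeping signal, control 1 had 0.828, BDS 11 had 0.787, control 18 had 0.655, BDS 59 had 0.815, BDS 24 had 1.04 and control 40 had 1.003. Control 18 lay below the shallower BDS 11, and control 40, at 1060 housekeeping counts, lay below BDS 38 at 1113 with its ratio of 1.23. Going the other way, control 1, at 461 housekeeping counts, lay above the deeper BDS 11 at 477 and BDS 59 at 813. With C1qb as the sole scaling gene the log2 fold change of C1qa was 0.66 (edgeR unadjusted p = 0.0259, adjusted p = 0.221), and with lane depth added as a covariate it was 0.18 (edgeR adjusted p = 0.697). Depth and group differ together in 10 lanes, and the part of depth in the ratio was not tested beyond these fits.

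**Figure D3:**
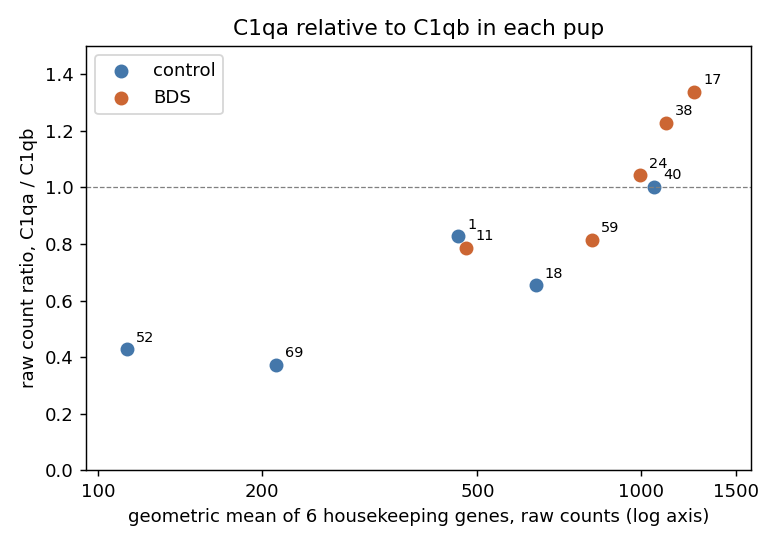
Raw count ratio of C1qa to C1qb (y) against the geometric mean of the 6 housekeeping genes in raw counts (x, log axis), each point 1 pup with its number, control in blue and BDS in orange; the dashed line marks a ratio of 1. Control 52 and 69, at the left, have the lowest ratios (0.429 and 0.373) and BDS 38 and 17, at the right, the highest (1.23 and 1.34).

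The genes that tracked each chain most closely were different. Likeness was taken as the SD over the 10 lanes of the log2 ratio of 2 genes, ranked over the 282 other tested genes, as a description. For C1qa the 5 nearest were Bcap31, an endoplasmic reticulum protein (SD 0.17), the proteasome subunit Psmb7 (0.18), the integrin chain Itgb1 (0.19), the transcription factor Stat5a (0.20) and the lysosomal protease Ctss (0.23). For C1qb they were the cytokine Il15 (0.15), the growth factor receptor Csf1r (0.17), Stat6 (0.19), the phagocytic receptor Trem2 (0.21) and Pdcd2 (0.22). C1qb ranked 145th of 282 for C1qa, with an SD of 0.60 where the median gene had 0.60, and C1qa ranked 189th for C1qb. The 10 points share panel, depth differences and pups. They pool both groups, so the group difference of a gene enters its likeness, and the ranking is not independent of the fold changes above. Of the microglia marker list, Csf1r was at 0.17 ± 0.22 on the log2 scale (SE; edgeR adjusted p = 0.607). Cx3cr1 was at -0.63 ± 0.23 (edgeR adjusted p = 0.126) and Ptprc, in the opposite direction, at 0.83 ± 0.26 (edgeR adjusted p = 0.0907). How specific each is to microglia was not tested.

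The complement system beyond the classical pathway was read through 23 further genes, of which 4 were detected and 0 passed edgeR over all genes tested, with a median log2 fold change of -0.16. Only Itgam had an unadjusted edgeR p under 0.05, and 1 of 4 is no larger a share than the 28.3% of all tested genes. Cfp, properdin of the alternative pathway, was at -0.21 ± 0.27 (edgeR adjusted p = 0.607) and Masp2, a protease of the lectin pathway, at -0.10 ± 0.26 (edgeR adjusted p = 0.823). Cfp and Masp2 turned positive with lane depth as a covariate (0.051 and 0.092). Cfb and Cfd of the alternative pathway and Hc (C5), C6, C7, C8a, C8b and C9 of the terminal pathway exceeded the limit in 0 lanes, and C8g in 1.

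Complement receptor 3 pairs the chains Itgam and Itgb2, and these differed in sign. Itgam stood at 50514, 41639, 31925, 26010 and 37001 normalized counts in control pups 1, 18, 40, 52 and 69, and between 22113 and 28053 in BDS pups. Control 52 alone among the controls lay within the BDS range. The log2 fold change was -0.56 ± 0.18 (SE; edgeR adjusted p = 0.0968), and 0.60 when lanes were scaled by positive controls alone, where the median of all tested genes was 1.35. Itgb2 was at 682 ± 217 normalized counts in control and 786 ± 113 in BDS pups (SD, n = 5 each), or 0.22 ± 0.22 (SE; edgeR adjusted p = 0.524), and at 0.0089 without Sdha in the scaling. Itgb2 ranked 8th in likeness to C1qb, and Itgam 151st.

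**Figure D4:**
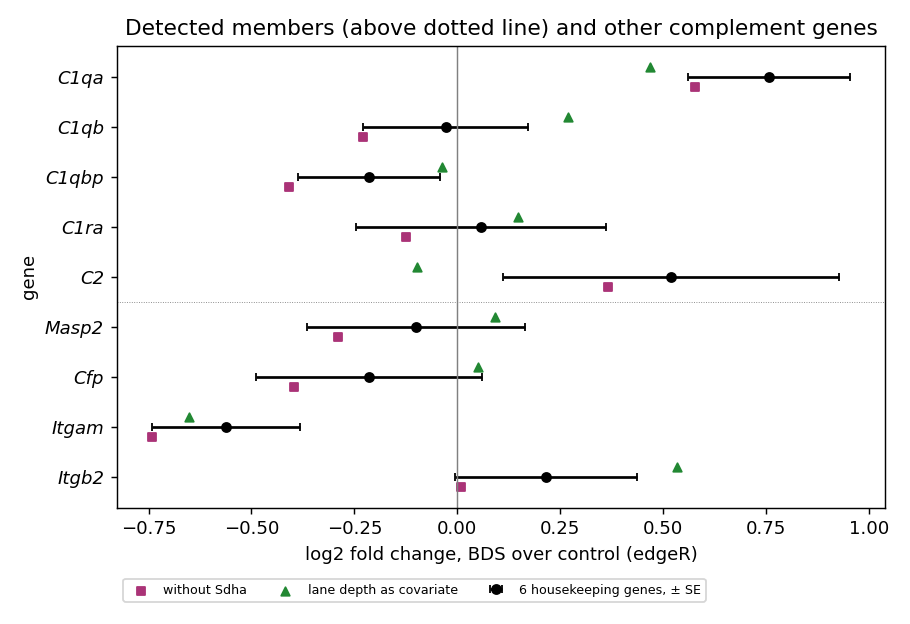
Log2 fold changes, BDS over control (x), of the 5 detected members (above the dotted line) and 4 other detected complement genes. Black points show the fit with 6 housekeeping genes ± SE, squares the scaling without Sdha and triangles the fit with lane depth as a covariate; C1qa lies to the right of 0 in all 3 and Itgam to the left in all 3, while C1qb has -0.028, -0.23 and 0.27.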

How the data were processed

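Barcode counts from 1 nCounter lane per pup were used as the authors deposited them, as raw counts per probe for 545 endogenous genes, 14 housekeeping genes, 8 negative and 6 positive controls. Per the labels' protocols the RNA was reverse transcribed and amplified by PCR before hybridization, so counts are not independent molecules. Besides these, the authors deposited scaled values, treated as a score, together with a percent of samples above background, a fold (ratio of group means) and a p-value per gene. Those scores follow the raw counts scaled by 5 housekeeping genes without Sdha, while the design text names 6.

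For scaling, the geometric mean of the 6 genes was taken in each lane (Alas1, Gapdh, Oaz1, Polr1b, Sdha and Tbp). A gene counted as present where 4 or more of 10 lanes (40%) exceeded the limit, the negative-control mean plus 2 SD, and present genes were fitted together with edgeR 4.0.16 in R 4.3.3 (quasi-likelihood F test, 5 against 5 pups), with Benjamini-Hochberg adjustment over all 283. SEs were obtained by dividing the log2 fold change by the root of its F statistic. Ratios of genes use raw counts plus 1, and their group difference an exact permutation test in SciPy 1.17.1. DESeq2 1.42.0 and limma 3.58.1 were alternatives, and the fitting script was first run on simulated counts with known changes. No pair of lanes agreed within sampling noise (chi-square per degree of freedom at least 22.8). Named genes were all members, detected genes of a complement list, the 5 genes nearest to C1qa and to C1qb, and 3 genes of the microglia marker list. Of the 6 housekeeping genes only Sdha is discussed. Undetected genes of the complement list are named only in part, and 1 detected gene is not reported here. The members, lists and tests were chosen with earlier results of these data known. Promoters are from RefSeq on GRCm38.p6.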

Additional observations from a re-analysis of the deposited data

How the results depend on the processing

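No paired analysis was possible because the pup numbers of the groups do not overlap. The alternatives changed scaling, filter, background, tool, covariate or lanes; 3 were added after seeing the data (C1qb as scaling gene, with and without lane depth, and BDS 17 and BDS 38 left out). C1qa was higher in BDS pups in all 25 alternatives, which reuse the same pups. With positive controls alone it was at 1.89, where the median of all tested genes was 1.35. C1qa passed an adjusted p of 0.05 with DESeq2 (0.76) and with only genes above the limit in all 10 lanes (0.76). It also passed in 2 of the fits with a pup left out (range 0.63 to 0.88). C1qb turned positive with positive controls alone (1.36), limma (0.014), lane depth as a covariate (0.27) and the 2 lowest control lanes left out (0.305), and ranged from -0.12 to 0.17 with a pup left out. C1qbp turned positive with positive controls alone (1.07). C1ra turned negative with TMM (-0.098), median-of-ratios factors (-0.11), without Sdha (-0.13), with the authors' deposited scores (-0.14), without BDS 17 and 38 (-0.056) and with C1qb as scaling gene (-0.040, or -0.16 with lane depth), and ranged from -0.058 to 0.21 with a pup left out. C2 turned negative with lane depth (-0.099; -0.38 with C1qb as scaling gene too). For C1qb, C1qbp, C1ra and C2 the adjusted p stayed above 0.05 in each alternative run. An unadjusted edgeR p under 0.05 was reached by C1qb without control 52 and 69 and by C1qbp without Sdha. In those fits 87 and 74 of the 283 tested genes had such a p. C1ra and C2 reached it with positive controls alone, where 125 of 283 genes did, all 125 higher in BDS pups. C1ra was at 1.42 and C2 at 1.55 there, where the median of all tested genes was 1.35. The C1qa to C1qb difference ranged from 0.55 to 0.91 with a pup left out, passing an exact permutation p of 0.05 without control 40 or BDS 11. The count of panel genes called was 34 with positive controls alone, 10 with the all-lane filter, 25 with DESeq2, and 0 to 48 with a pup left out. The 48 were called without control 40, and 19 were called without BDS 11. The median log2 fold change of all tested genes was 0.089, -0.088 without Sdha and 1.35 with positive controls alone. Signs near 0 are therefore not read as a result. The cause of the sign changes was not tested. Control 52 and 69 limit the low genes: C2 and C1ra lay at or below the limit there.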
